A study of Mus musculus with 11 samples.

Results

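The C/EBP family was followed through 3 groups of transduced mouse bone marrow by RNA-seq. The members were taken by mouse gene symbol: Cebpa, Cebpb, Cebpd, Cebpe, Cebpg, Cebpz and Ddit3 (which encodes CHOP), 7 of the 51912 genes in the deposited count table. Every one of the 7 passed the filter on low counts that left 15703 genes for testing. All samples were bone marrow of C57BL/6 mice, spinoculated with retrovirus in IL-3, IL-6 and SCF, sorted as lineage-negative cells carrying both vectors, and cultured for 48 h without added cytokines in 500 nM 4-hydroxytamoxifen (4-OHT). The donors were female mice of 6 to 12 weeks per the study's methods. The study paired its inducible vector with cells of Rosa26 ERT2-Cre mice, and 4-OHT activated this Cre recombinase in all 3 groups. CSF3R-only cells (n = 4, replicates A to D) carried a constitutive GFP vector with human CSF3R T618I, a receptor mutation that signals without ligand, and an empty Cre-inducible vector. CSF3R-first cells (n = 3, replicates A to C) carried the same constitutive CSF3R T618I vector, and 4-OHT switched on human CEBPA V314VW, a mutation of the C-terminal part of the protein that binds DNA and forms dimers. CEBPA-first cells (n = 4, replicates A to D) carried constitutive CEBPA V314VW, and 4-OHT switched on CSF3R T618I. CEBPA-first against CSF3R-first compares the orders of the mutations. Comparisons with CSF3R-only also differ in the presence of CEBPA V314VW, which CSF3R-only cells did not carry. Untransduced cells or cells with CEBPA V314VW alone were not analysed here.

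C/EBP proteins are basic leucine zipper (bZIP) transcription factors that bind DNA as dimers, with each other or with related bZIP proteins. In the myeloid lineage C/EBPalpha is needed for progenitors to enter the granulocyte path, C/EBPepsilon for the late granule program of neutrophils, and C/EBPbeta for granulocyte production under cytokine or infectious stress, when C/EBPdelta is also induced. C/EBPgamma lacks most of the activating parts of the other members and acts largely as a dimer partner. CHOP also pairs with the other members. Cebpz shares only the CCAAT box in its name: it encodes a CCAAT-binding factor that has no bZIP domain and takes part in ribosome assembly.

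Total counts ranged from 47905747 to 72268346 per sample, and 3 counts correspond to 0.0383 to 0.0648 CPM (counts per 1000000 counts). Pairs of replicates were not copies of each other: the chi-square statistic divided by its degrees of freedom was 9.24 to 103. The highest values were those of CSF3R-first A with B (103) and with C (79.2). CSF3R-first B with C gave 23.6, and no other pair exceeded 40.8. The labels do not say whether replicates came from separate animals, so p-values measure only the spread between these samples. Although the methods name female mice, the lowest level of Ddx3y, a Y-linked gene, was 69.8 CPM in these libraries and Xist reached at most 4 counts in any. Markers of B cells (6 genes, summed level 3.26 to 6.81 CPM over the samples) and of T and NK cells (8 genes, 1.81 to 5.58 CPM, with Cd3e, Cd8a and Ncr1 at 0 counts in every sample) were low, and progenitor markers (5 genes) summed to 275 to 406 CPM. Myeloid markers were abundant: the 5 neutrophil genes, of which Mpo and Elane mark early granules, summed to 3304 to 4301 CPM and the 8 monocyte and macrophage genes to 3305 to 5330.3 CPM.

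To show the start regions of the pair of members that moved furthest apart, Cebpa and Cebpb, the 250 bases before the RefSeq start of each are given (GRCm38.p6, 5′ to 3′ on the gene's strand). Capitals mark matches, on either strand, to 6 motifs: the C/EBP core TTGCNNAA, the cAMP response element core TGACG, the STAT motif TTCNNNGAA, CCAAT, the E-box CACGTG and TATAAA. The Cebpa sequence lies at chr7:35119043-35119292 and that of Cebpb at chr2:167688665-167688914, both on the plus strand.
Cebpa: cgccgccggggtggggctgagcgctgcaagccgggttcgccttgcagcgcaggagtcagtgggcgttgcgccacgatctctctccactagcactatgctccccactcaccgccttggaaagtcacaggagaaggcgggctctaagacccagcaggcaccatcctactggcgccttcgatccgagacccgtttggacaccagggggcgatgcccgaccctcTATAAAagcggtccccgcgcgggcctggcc
Cebpb: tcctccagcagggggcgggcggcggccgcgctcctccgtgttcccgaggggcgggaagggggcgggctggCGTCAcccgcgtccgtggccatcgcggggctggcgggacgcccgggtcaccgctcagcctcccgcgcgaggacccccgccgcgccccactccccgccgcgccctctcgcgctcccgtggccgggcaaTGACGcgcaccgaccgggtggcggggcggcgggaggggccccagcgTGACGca
The Cebpa window held TATAAA at -30 to -25 from the start, and none of the other 5 motifs. TATAAA was in 12.4% of the 32851 RefSeq promoter windows of this length. The Cebpb window held TGACG at -53 to -49 and at -7 to -3, and its reverse complement at -180 to -176. That core was in 17.8% of all windows. No match to TTGCNNAA was in either window, against 9.56% of all windows, none to TTCNNNGAA, against 7.02%, none to CCAAT, against 33.8%, and none to CACGTG, against 6.02%. The matches did not overlap each other. Promoter sequences were also matched for Cebpg and Ddit3, so that 4 of the 7 members had one.

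In CEBPA-first against CSF3R-only cells every member differed, as did most genes tested, and the members did not differ in the same direction. Cebpb, Cebpd, Cebpe and Ddit3 were lower and Cebpa, Cebpz and, by a small margin, Cebpg were higher, by the quasi-likelihood test of edgeR at a Benjamini-Hochberg adjusted p of 0.05. The 4 lower members stand against 36.6% of all genes tested that were lower, and the 3 higher members against 35.4% that were higher. With the study's added threshold of a log2 fold change of at least 1 in either direction, Cebpb, Cebpd and Cebpe, 3 of 7, passed, against 27.0% of all genes. The lowest and highest samples of the groups did not overlap for any of the 7 members, against 68.7% of all genes. The median log2 fold change was -0.95 over the members and -0.0045 over all genes tested. Scaling by library size alone in place of TMM moved the median of all genes in this comparison to 0.13, and each member kept its direction and its call at the adjusted p. Against the added fold threshold, Cebpa then passed (1.07) and Cebpe did not (-0.93), and the same was found with no filter but at least 1 count in any sample (1.01 and -0.99). Ddit3 also passed it without CSF3R-only D (-1.005) or without CEBPA-first D (-1.003), which made 4 of 7.

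CSF3R-first cells lay between the other groups for 6 of the 7 members. Against CSF3R-only, 4 members were lower (21.1% of all genes) and 2 were higher (21.6%). In this comparison 0 of 7 members reached a log2 fold change of 1 with edgeR, and 0 with DESeq2, against 6.65% of all genes that passed both thresholds. An unadjusted p below 0.05 was found for 6 of 7 members and for 50.5% of all genes. The groups did not overlap for 4 members, Cebpa, Cebpd, Cebpe and Ddit3, against 42.1% of all genes. Over all genes, scaling by library size alone gave 4324 higher and 2658 lower in this comparison, in place of 3385 and 3318, and the 6 members called were called in the same direction. CEBPA-first against CSF3R-first cells gave 4 lower (24.3% of all genes) and 3 higher members (24.0%). Cebpb alone, 1 of 7, passed the added fold threshold (12.8% of all genes), and 0 did without CSF3R-first A (Cebpb -0.88, adjusted p = 0.00017). The groups did not overlap for any of the 7 members (52.2%). These pairwise comparisons share samples, so their agreement is no independent evidence.

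**Figure D1:**
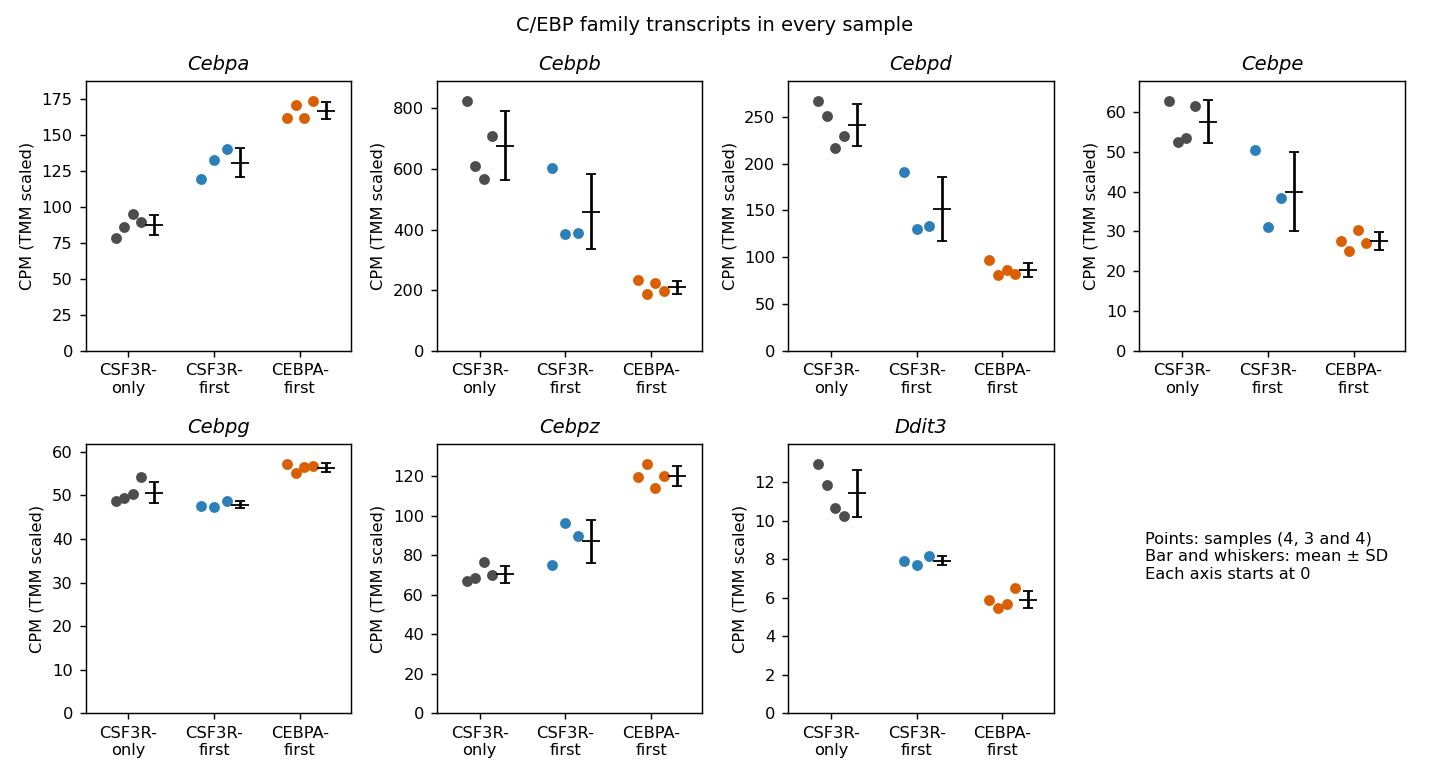
Level of each C/EBP family member in every sample, in TMM-scaled CPM on axes that start at 0, with the mean and SD of each group (n = 4, 3 and 4) beside the points. Cebpa and Cebpz are lowest in CSF3R-only and highest in CEBPA-first, Cebpb, Cebpd, Cebpe and Ddit3 go the other way, and Cebpg is lowest in CSF3R-first.

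Cebpa (ENSMUSG00000034957, GRCm38 chr7:35119293-35121928, plus strand, a gene without introns) encodes the factor that drives the entry into the granulocyte lineage. Its level in TMM-scaled CPM was 78.5, 85.7, 95.1 and 89.6 in CSF3R-only A to D, 119.5, 132 and 140.0 in CSF3R-first A to C, and 161, 170.3, 161 and 173 in CEBPA-first A to D. The groups did not overlap, and all 3 steps exceeded the spread between replicates. The means were 87.2 ± 7.0, 131 ± 10.4 and 167 ± 6.1 CPM (SD). CEBPA-first exceeded CSF3R-only by a log2 fold change of 0.93 (SE 0.07, adjusted p = 1.2e-07), CSF3R-first exceeded CSF3R-only by 0.58 (SE 0.07, adjusted p = 0.00012), and CEBPA-first exceeded CSF3R-first by 0.35 (SE 0.08, adjusted p = 0.0024). Gm45091 overlaps 1.94% of the Cebpa exon bases on the other strand, with 3 to 14 counts. Both higher groups carried a human CEBPA vector, and CSF3R-only did not. Reads from that vector that aligned to the mouse gene cannot be told apart from mouse Cebpa reads in a table of counts per gene.

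Cebpb (ENSMUSG00000056501, chr2:167688915-167690418, plus strand, no intron) encodes the factor of stress granulopoiesis and macrophage activation, and had the widest range of the family. It measured 824, 609.5, 566 and 708.5 CPM in CSF3R-only A to D, 603, 384 and 389 CPM in CSF3R-first A to C, and 232, 186, 222 and 198 CPM in CEBPA-first A to D. CEBPA-first lay below both other groups in every sample, whereas CSF3R-first A reached into the CSF3R-only range. The group means were 677 ± 115, 459 ± 125 and 209.5 ± 21.5 CPM (SD). CEBPA-first was 3.23-fold below CSF3R-only (log2 fold change -1.69, SE 0.16, adjusted p = 6.9e-07) and 2.19-fold below CSF3R-first (-1.13, SE 0.16, adjusted p = 0.00016). CSF3R-first was lower than CSF3R-only by a smaller step (-0.56, SE 0.17, adjusted p = 0.016), which missed the threshold without CSF3R-first B (-0.45, adjusted p = 0.08) or C (-0.44, adjusted p = 0.08). Tmem189 overlaps 20.7% of the Cebpb exon bases on the other strand and had 4335 to 10021 counts. A stretch of 21.3% of the longest Cebpb transcript is nearly identical to Tmem189. Whether the counting used strand is not given in the sources used here, so some reads may belong to either gene.

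Cebpd (ENSMUSG00000071637, chr16:15887286-15891031, plus strand) encodes an acute-phase factor that is induced by inflammatory cytokines. Its levels were 267, 251, 217 and 229.9 CPM in CSF3R-only A to D, 191, 129.9 and 133.5 CPM in CSF3R-first A to C, and 96.7, 80.7, 86.3 and 81.6 CPM in CEBPA-first A to D. The 3 groups did not overlap. CEBPA-first was 2.79-fold lower than CSF3R-only (log2 fold change -1.48, SE 0.12, adjusted p = 2.1e-07) and lower than CSF3R-first by -0.81 (SE 0.12, adjusted p = 0.00027), and CSF3R-first was below CSF3R-only by -0.67 (SE 0.13, adjusted p = 0.0014). Spidr overlaps 15.0% of the Cebpd exon bases on the other strand, with 2509 to 3692 counts. The same share of its longest transcript, 15.0%, is nearly identical to Spidr, so part of the Cebpd counts is uncertain.

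Cebpe (ENSMUSG00000052435, chr14:54710360-54712174, minus strand), whose product is required for secondary granules, has no exon base in another gene. Its values were 62.8, 52.6, 53.5 and 61.6 CPM in CSF3R-only A to D, 50.6, 31.0 and 38.3 CPM in CSF3R-first A to C, and 27.6, 25.0, 30.4 and 27.0 CPM in CEBPA-first A to D. All CEBPA-first samples were below all CSF3R-first samples, although CSF3R-first B came close. The difference from CSF3R-only was 2.1-fold in CEBPA-first (log2 fold change -1.07, SE 0.13, adjusted p = 5.9e-06) and 1.44-fold in CSF3R-first (-0.53, SE 0.14, adjusted p = 0.0079). CEBPA-first was lower than CSF3R-first by -0.54 (SE 0.13, adjusted p = 0.0057), and this difference shrank to -0.33 (adjusted p = 0.026) without CSF3R-first A. It ranged from -0.69 to -0.33 over the fits that each left out 1 sample.

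Ddit3 (ENSMUSG00000025408, chr10:127290774-127296288, plus strand) encodes CHOP, the stress-induced member that pairs with the others and keeps them from most C/EBP sites. It had the fewest counts of the family, at least 297 in a sample. It measured 12.96, 11.8, 10.7 and 10.2 CPM in CSF3R-only A to D, 7.92, 7.71 and 8.19 CPM in CSF3R-first A to C, and 5.87, 5.49, 5.70 and 6.51 CPM in CEBPA-first A to D. The groups were fully separated, and CSF3R-first varied least, with an SD of 0.24 CPM. The log2 fold change was -0.95 for CEBPA-first against CSF3R-only (SE 0.09, adjusted p = 1.4e-06), -0.52 for CSF3R-first against CSF3R-only (SE 0.10, adjusted p = 0.0017) and -0.43 for CEBPA-first against CSF3R-first (SE 0.10, adjusted p = 0.0044). Other annotated genes cover 10.9% of its exon bases. The largest overlap, 6.13%, is with another gene annotated as Ddit3 (ENSMUSG00000116429) on the same strand, to which 10.8% of the longest transcript is nearly identical. The deposited counts hold no entry for that gene. Reads from the shared stretch cannot be assigned by strand, so part of the Ddit3 counts is uncertain. Mars overlaps 3.97% on the other strand, with 5684 to 20561 counts.

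Cebpg (ENSMUSG00000056216, chr7:35046422-35056573, minus strand) encodes C/EBPgamma, a partner of ATF4, and was the steadiest member. Its level was 48.8, 49.3, 50.3 and 54.2 CPM in CSF3R-only A to D, 47.4, 47.3 and 48.8 CPM in CSF3R-first A to C, and 57.2, 55.0, 56.5 and 56.7 CPM in CEBPA-first A to D. CEBPA-first stood above both other groups in every sample, while CSF3R-only and CSF3R-first overlapped. The excess was small, with a log2 fold change of 0.15 over CSF3R-only (SE 0.05, adjusted p = 0.015) and 0.24 over CSF3R-first (SE 0.06, adjusted p = 0.0039). With scaling by library size alone the excess over CSF3R-only was 0.29 (adjusted p = 0.00081). Between CSF3R-first and CSF3R-only no difference was detected (-0.08, 95% interval -0.20 to 0.04, adjusted p = 0.25), and the sign turned to 0.0023 with that scaling. Gm44836 overlaps 1.30% of the Cebpg exon bases on the same strand, with 5 to 11 counts.

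Cebpz (ENSMUSG00000024081, chr17:78919006-78937066, minus strand), the member without a bZIP domain, followed the direction of Cebpa. It measured 66.7, 68.2, 76.5 and 70.1 CPM in CSF3R-only A to D, 75.1, 96.5 and 89.5 CPM in CSF3R-first A to C, and 119, 126, 114 and 120.0 CPM in CEBPA-first A to D. CEBPA-first exceeded every other sample, and CSF3R-first A fell within the CSF3R-only range. CEBPA-first was 1.7-fold above CSF3R-only (log2 fold change 0.77, SE 0.08, adjusted p = 1.3e-06) and 1.38-fold above CSF3R-first (0.46, SE 0.08, adjusted p = 0.00074). The step from CSF3R-only to CSF3R-first (0.31, SE 0.08, adjusted p = 0.0095) missed the threshold without CSF3R-first B (0.23, adjusted p = 0.059). A stretch of 6.56% of its longest transcript is nearly identical to another annotated gene, AC118632.1, so part of its counts is uncertain. Cebpzos overlaps 3.67% of its exon bases on the other strand, with 206 to 313 counts.

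**Figure D2:**
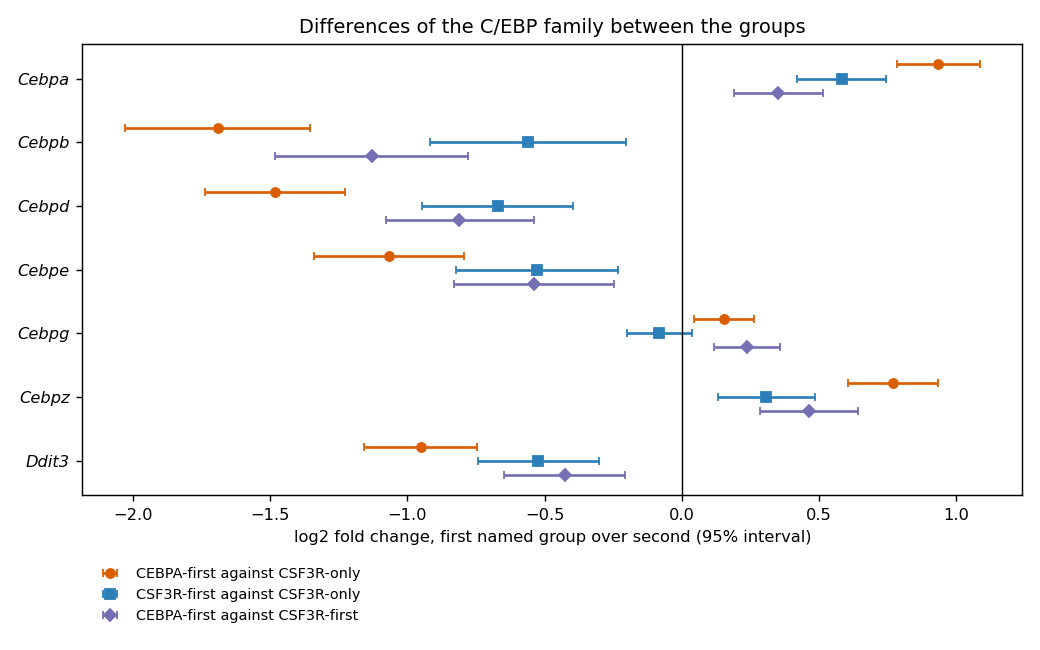
Log2 fold change of each member in the 3 pairwise comparisons, with 95% intervals from the edgeR fit of all 11 samples. Only the interval of Cebpg in CSF3R-first against CSF3R-only (-0.20 to 0.04) includes 0.

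The place of CSF3R-first between the other groups was set on the log2 scale, where 0 is the mean of CSF3R-only and 1 the mean of CEBPA-first. Cebpa lay at 0.62 ± 0.12 (SD, n = 3), Ddit3 at 0.55 ± 0.05, Cebpe at 0.52 ± 0.33, Cebpd at 0.47 ± 0.21, Cebpz at 0.39 ± 0.24 and Cebpb at 0.34 ± 0.22. Cebpg was outside the interval, at -0.52 ± 0.16, though edgeR detected no difference between CSF3R-first and CSF3R-only for it (-0.08, adjusted p = 0.25). Each SD covers only the CSF3R-first samples and takes the means of the other groups as fixed. CSF3R-first A lay nearer to CSF3R-only than B or C did for 5 members, Cebpa (0.49), Cebpb (0.09), Cebpd (0.23), Cebpe (0.17) and Cebpz (0.12), but not for Ddit3 (0.55). For Cebpb the other samples lay at 0.48 and 0.47, and for Cebpe at 0.84 and 0.55. Against the midpoint of the other groups, edgeR called 0 of 7 members higher (2.59% of all genes) and 0 lower (0.962%). An unadjusted p below 0.05 was found for 1 of 7 members, near the share of 15.5% over all genes. That member was Cebpg (log2 difference -0.16, SE 0.05, unadjusted p = 0.0065, adjusted p = 0.11), and DESeq2 called it alone (adjusted p = 0.026). The interval for Cebpb ran from -0.02 to 0.59 and that for Cebpe from -0.25 to 0.26, so places off the midpoint by up to those sizes lie within the intervals.

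Marker levels also differed between the CSF3R-first samples and between the groups, and their part in the positions and differences of the members was not tested. The 8 monocyte and macrophage genes summed to 5330.3 CPM in A, 3305 in B and 4222 in C, the 6 eosinophil genes to 128, 56.0 and 77.8 CPM, and the 8 erythroid genes to 112, 207 and 372 CPM. Between the groups, the 6 megakaryocyte genes summed to 877 to 1189 CPM in CSF3R-only, 339 to 524 for CSF3R-first and 112 to 155 for CEBPA-first, and the 6 eosinophil genes to 229.9 to 347, 56.0 to 128 and 28.3 to 35.0 CPM. The 8 erythroid genes summed to 238 to 364, 112 to 372 and 38.2 to 54.7 CPM. Summed levels of the 7 mast cell and basophil genes were 1653 to 2548, 1051 to 1302 and 1220.4 to 1651 CPM. Of these 7, 3 were lower and 1, Fcer1a (log2 fold change 1.15), was higher in CEBPA-first against CSF3R-only. Within the neutrophil and monocyte lists the genes did not all move in the same direction. Of the 5 neutrophil genes, 3 were lower and 2 higher in CEBPA-first against CSF3R-only, and the list summed to 3304 to 3444 CPM in CSF3R-only, 3545 to 4228 for CSF3R-first and 4005 to 4301 for CEBPA-first. The genes of late maturation were lower, Ly6g from 45.8 ± 3.4 CPM in CSF3R-only to 17.3 ± 6.8 for CSF3R-first and 3.65 ± 0.89 for CEBPA-first (log2 fold change of the last against the first -3.66), and Cxcr2 likewise (-2.92), as was Csf3r (-2.46). The primary granule genes Mpo (0.88) and Elane (1.27) were higher. Of the 8 monocyte and macrophage genes, 6 were lower in CEBPA-first against CSF3R-only, among them Adgre1, which encodes F4/80 (392 ± 48.1, 208 ± 63.2 and 80.5 ± 14.2 CPM, -2.28), Cd68 (-1.87) and C1qa (-2.37). The other 2, Ly86 (2.70) and F13a1 (0.64), were higher, and F13a1 alone, at 2577 ± 125, 3125 ± 708 and 4007 ± 693 CPM, made up most of the summed level. The 5 progenitor genes summed to 376 to 406 CPM in CSF3R-only, 275 to 312 for CSF3R-first and 279 to 322 for CEBPA-first. Of these, Cd34 (-2.31) and Cd93 (-0.89) were lower in CEBPA-first against CSF3R-only, and Flt3 (1.5), Cd48 (0.68) and Kit (0.33) were higher. In a bulk sample, fewer cells of a type and less RNA per cell cannot be told apart.

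Levels of different members can be compared only per length, and counts were divided by the kilobases of exon of each gene. In CSF3R-only the order in CPM per kb was Cebpb (450.1 ± 76.3, SD), Cebpd (64.4 ± 5.9), Cebpe (46.4 ± 4.3), Cebpa (33.1 ± 2.6), Cebpz (15.1 ± 0.92), Cebpg (9.01 ± 0.44) and Ddit3 (6.67 ± 0.72), and no neighbours in this order overlapped. In CSF3R-first Cebpa (49.5 ± 3.9) stood second behind Cebpb (305 ± 82.8), and its range overlapped with that of Cebpd (40.4 ± 9.1), which overlapped with that of Cebpe (32.2 ± 8.0). In CEBPA-first Cebpa (63.2 ± 2.3) followed Cebpb (139 ± 14.3) without overlap, and Cebpz (25.7 ± 1.1), Cebpd (23.0 ± 2.0) and Cebpe (22.2 ± 1.8) overlapped as neighbours. By these counts Cebpa took the fourth place in CSF3R-only and the second in the other groups, and Cebpb was first in all 3. Reads of the human CEBPA vector, carried only by the groups in which Cebpa stood higher, cannot be told apart from mouse Cebpa in its place, in its share or in any ratio to it. Per kb of the longest transcript in place of all exons, Ddit3 (11.8 ± 1.3) came before Cebpg (10.8 ± 0.52) in CSF3R-only with overlapping ranges, and Cebpz (29.5 ± 1.2) no longer overlapped with Cebpd in CEBPA-first, while the places of Cebpa and Cebpb were the same.

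Summed over the 6 bZIP members, the level was 610 ± 82.7 CPM per kb in CSF3R-only (529 to 716), 440 ± 95.9 for CSF3R-first (378 to 551) and 261 ± 15.5 for CEBPA-first (243 to 277). Cebpb made up 73.6% ± 2.5 of that sum in CSF3R-only, 68.8% ± 3.5 for CSF3R-first and 53.2% ± 2.4 for CEBPA-first. Cebpa made up 5.54% ± 1.1, 11.7% ± 3.0 and 24.3% ± 2.3. The shares of Cebpd (10.6% ± 1.0, 9.17% ± 0.08 and 8.82% ± 0.36) and Cebpe (7.65% ± 0.47, 7.30% ± 0.64 and 8.49% ± 0.45) lay between 6.61% and 11.9% in every sample. Shares of 1 sum are tied to each other and were not tested.

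**Figure D3:**
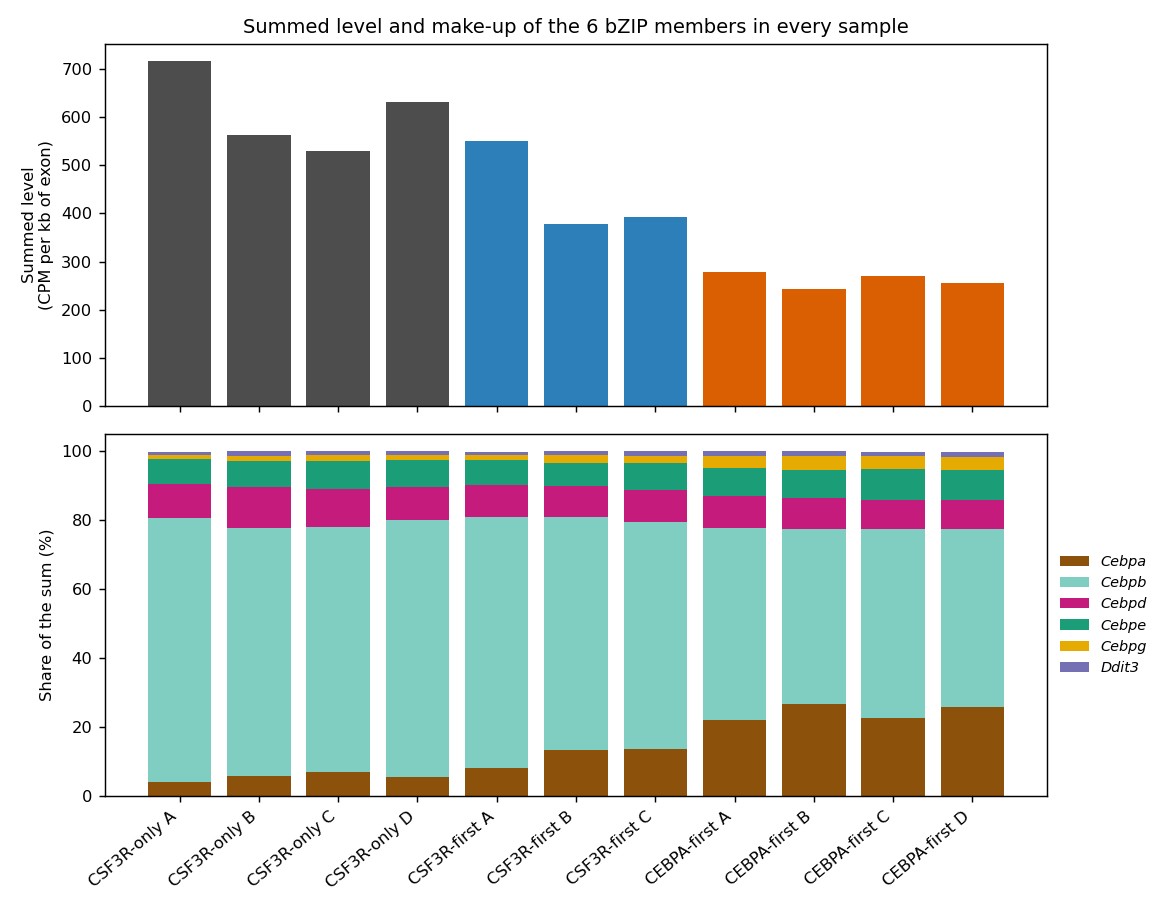
Upper panel: summed level of the 6 bZIP members in CPM per kb of exon in each of the 11 samples, coloured by group. Lower panel: share of each member in that sum in percent. The sum falls from 529 to 716 in CSF3R-only to 243 to 277 in CEBPA-first, and the Cebpa share rises from between 4.16% and 6.83% to between 22.1% and 26.6%.

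The balance between members was tested within samples, as the log2 ratio of their counts plus 0.5 per kb of exon, which needs no scaling between libraries. All 7 ratios in 3 pairs of groups gave 21 two-sided exact permutation tests, whose smallest possible p was 0.0286 (adjusted 0.0353). The ratios use the same counts as the levels and are not separate evidence. Cebpb exceeded Cebpa 18.4-, 12.5-, 10.4- and 13.9-fold per kb in CSF3R-only A to D, 8.84-, 5.10- and 4.87-fold in CSF3R-first A to C, and 2.52-, 1.91-, 2.41- and 2.0-fold in CEBPA-first A to D. The groups did not overlap, and the fold of Cebpb over Cebpa was 6.14 times lower in CEBPA-first than it was in CSF3R-only (log2 difference -2.62, exact p = 0.0286, adjusted p = 0.0353), 2.24 times lower in CSF3R-first than in CSF3R-only (-1.16, exact p = 0.0286) and 2.75 times lower in CEBPA-first than in CSF3R-first (-1.46, exact p = 0.0286).

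The ratios of Cebpd and Cebpe to Cebpa crossed 1. Cebpd was 1.97 ± 0.34 times Cebpa per kb in CSF3R-only (1.61 to 2.39), 0.83 ± 0.26 times for CSF3R-first (0.671 to 1.12) and 0.366 ± 0.043 times for CEBPA-first (0.331 to 0.422). Cebpe was 1.41 ± 0.22 times Cebpa in CSF3R-only, 0.66 ± 0.21 for CSF3R-first and 0.352 ± 0.039 for CEBPA-first. Both ratios separated all 3 groups with the smallest p the exact test can give (log2 differences of CEBPA-first from CSF3R-only -2.42 and -2.0). Ddit3 to Cebpa also separated all 3 groups (-1.89 in CEBPA-first and -1.10 in CSF3R-first against CSF3R-only, and -0.79 in CEBPA-first against CSF3R-first). Cebpg to Cebpa was lower than in CSF3R-only in CEBPA-first and in CSF3R-first (-0.78 and -0.66, exact p = 0.0286 each), and these groups overlapped with each other (-0.12, exact p = 0.143, adjusted p = 0.158).

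The members that fell did not keep fixed proportions. Cebpe was 0.104 ± 0.0091 times Cebpb per kb in CSF3R-only, 0.106 ± 0.012 for CSF3R-first and 0.160 ± 0.011 for CEBPA-first. CEBPA-first stood above both other groups without overlap (log2 differences 0.62 and 0.59, exact p = 0.0286, adjusted p = 0.0353 each), while CSF3R-first and CSF3R-only did not separate (0.03, exact p = 0.771). Cebpd to Cebpb was higher in CEBPA-first than in CSF3R-first (0.31, exact p = 0.0286, adjusted p = 0.0353). It overlapped between CEBPA-first and CSF3R-only (0.20, exact p = 0.0571, adjusted p = 0.0667) and between CSF3R-first and CSF3R-only (-0.11, exact p = 0.371).

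**Figure D4:**
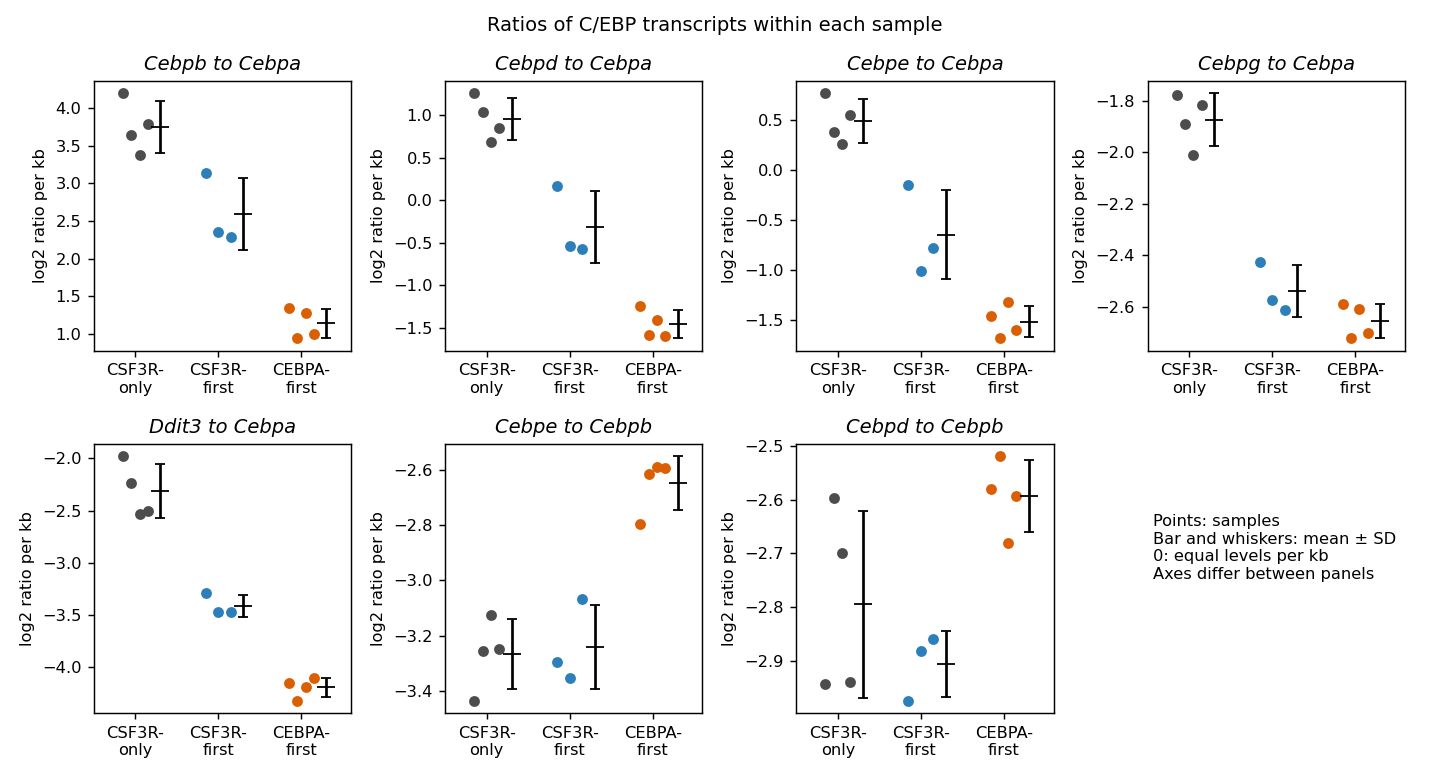
Log2 ratio per kb of exon for 7 pairs of members in every sample, with group mean and SD; 0 is an equal level, and the axes differ between panels. The ratios of Cebpb, Cebpd, Cebpe and Ddit3 to Cebpa separate all 3 groups, and Cebpe to Cebpb is higher in CEBPA-first only.

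The genes with the pattern most like a member were sought among 6021 genes whose mean log2 CPM was 5 or more, by the root mean square (RMS) difference of log2 CPM centred on each gene's mean over the 11 samples. For Cebpa they were Mllt1 (0.05, against an RMS of 0.41 of Cebpa itself), Tbrg4 (0.06) and Rnf126 (0.06). Mllt1, a subunit of the super elongation complex, went from 56.5 ± 3.2 CPM in CSF3R-only to 84.1 ± 6.0 for CSF3R-first and 109 ± 4.0 for CEBPA-first. For Cebpb they were Ccdc125 (0.10), Card19 (0.11) and Irak2 (0.11), the last a kinase of interleukin-1 and Toll-like receptor signalling. Irak2 measured 80.3 ± 5.3, 53.9 ± 13.3 and 25.2 ± 4.1 CPM in the same order.

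For Cebpd the likest genes included Ncf4 (0.05) and Fuca1 (0.07), against an RMS of 0.65 of Cebpd itself. Ncf4, which encodes a cytosolic subunit of the phagocyte NADPH oxidase, went from 495 ± 29.0 CPM in CSF3R-only to 329.6 ± 74.5 for CSF3R-first and 183 ± 13.1 for CEBPA-first. For Cebpe they included Ier3 (0.09) and Hdac5 (0.09), and for Ddit3 they were Slc25a38 (0.08), Unc13d (0.10) and Fermt3 (0.11). Among the members, Cebpa was nearest to Cebpz (0.13), Cebpb to Cebpd (0.16) and Ddit3 to Cebpe (0.20).

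The other genes of the pathway were counted in lists by their role. Over all genes tested, 35.4% were higher and 36.6% lower in CEBPA-first against CSF3R-only, and 21.6% and 21.1% in CSF3R-first against CSF3R-only. The comparison of the orders, CEBPA-first against CSF3R-first, called 24.0% of all genes higher and 24.3% lower. Of 13 related bZIP factors, possible partners or competitors of C/EBP proteins, 4 were higher (30.8%) and 5 lower (38.5%) in CEBPA-first against CSF3R-only, close to the shares over all genes, with a median log2 fold change of -0.16 against -0.0045 over all genes. Hlf, a bZIP factor of hematopoietic stem cells, went from 2.92 ± 0.51 CPM in CSF3R-only to 14.0 ± 3.35 in CEBPA-first (log2 fold change 2.26, SE 0.18, adjusted p = 1.9e-07). The AP-1 subunits Jun (198 ± 26.0 to 46.9 ± 11.3 CPM, -2.08, SE 0.18) and Fos (77.4 ± 26.7 to 25.4 ± 5.8 CPM, -1.61, SE 0.24) and the stress factor Atf3 (45.0 ± 3.8 to 18.3 ± 4.6 CPM, -1.30, SE 0.18) were lower. Hlf in CSF3R-first was at 3.06 ± 0.39 CPM, where no difference from CSF3R-only was detected (0.07, adjusted p = 0.82). The whole list had 1 higher and 4 lower there. In CEBPA-first against CSF3R-first the list had 4 higher and 4 lower (30.8% each, median 0.11).

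Of 12 tested regulators of C/EBP gene transcription, 6 were higher and 4 lower (33.3%) in CEBPA-first against CSF3R-only (median 0.10). In CSF3R-first against CSF3R-only 3 were higher (25.0%) and 7 lower (58.3%, median -0.21). CEBPA-first against CSF3R-first gave 5 higher (41.7%) and 3 lower (25.0%, median 0.21). Myc, which represses Cebpa transcription in other settings, measured 158 ± 27.7 CPM in CSF3R-only, 283 ± 45.1 for CSF3R-first and 465 ± 16.3 for CEBPA-first (log2 fold change of the last against the first 1.56, SE 0.13, adjusted p = 2.3e-07). The granulocyte repressor Gfi1 rose (23.7 ± 0.68 to 44.5 ± 1.2 CPM, 0.91, SE 0.06). The ETS factors Spi1, which encodes PU.1 (664 ± 40.1 to 341 ± 14.7 CPM, -0.96, SE 0.10), and Fli1 (241 ± 7.2 to 155 ± 5.9 CPM, -0.63, SE 0.05) fell.

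Of 9 inhibitors of C/EBP proteins or of their translation, 2 were higher (22.2%, against 35.4% of all genes) and 5 lower (55.6%, against 36.6%) in CEBPA-first against CSF3R-only (median -0.27), and 1 higher (11.1%, against 21.6%) and 4 lower (44.4%, against 21.1%) in CSF3R-first (median -0.22). In CEBPA-first against CSF3R-first 1 of these inhibitors was higher (11.1%) and 3 were lower (33.3%, median -0.15). Trib1 and Trib2 encode pseudokinases that send C/EBPalpha to degradation. Trib1 measured 33.1 ± 2.6 CPM in CSF3R-only, 14.7 ± 3.8 for CSF3R-first and 9.65 ± 1.3 for CEBPA-first (-1.78, SE 0.14, adjusted p = 2e-07), and Trib2 8.83 ± 2.9, 6.94 ± 2.3 and 5.46 ± 0.53 CPM (-0.69, SE 0.23, adjusted p = 0.016). Of the inhibitory helix-loop-helix genes, Id2 fell from 368 ± 22.1 to 84.0 ± 17.8 CPM (-2.13, SE 0.16) and Id1 from 45.0 ± 2.4 to 17.8 ± 1.8 CPM (-1.34, SE 0.08). The 2 higher genes are outside the rule for naming and were chosen after their values were seen. They were Calr (1592 ± 98.5 to 2402 ± 98.7 CPM, 0.59, SE 0.07) and Pcbp2 (28.2 ± 3.1 to 33.0 ± 1.7 CPM, 0.22, SE 0.08).

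The target lists differed in their counts. Of 12 early myeloid targets of C/EBPalpha, 6 were higher and 6 lower in CEBPA-first against CSF3R-only (median -0.09), and 6 higher and 5 lower in CSF3R-first. The genes with the largest changes were lower: Lyz2 (lysozyme, 17215 ± 2399.8 to 2316 ± 463 CPM, -2.89, SE 0.23), Cd14 (240.4 ± 23.0 to 42.0 ± 8.7 CPM, -2.52, SE 0.30), Csf3r (846 ± 94.9 to 154 ± 16.1 CPM, -2.46, SE 0.13) and Csf1r (1126 ± 161 to 223 ± 37.2 CPM, -2.34, SE 0.20). The higher genes included those of primary granule proteins, which are outside the rule for naming and were chosen after their values were seen: Prtn3 (454 ± 47.6 to 1292 ± 42.9 CPM, 1.51, SE 0.08), Ctsg (339 ± 37.5 to 896 ± 30.1 CPM, 1.40, SE 0.09), Elane (509.8 ± 53.1 to 1233 ± 101 CPM, 1.27, SE 0.10) and Mpo (1485 ± 116 to 2737 ± 176 CPM, 0.88, SE 0.09). Gfi1 and Ms4a3 (0.30, SE 0.09) were the other higher genes. Of the same 12 targets, 5 were higher (41.7%) and 7 lower (58.3%) in CEBPA-first against CSF3R-first (median -0.29). All 3 groups carried a human CSF3R vector, whose reads cannot be told apart from mouse Csf3r in these counts.

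Of 12 late granule targets of C/EBPepsilon, 11 were lower (91.7%, against 36.6% of all genes) and 1, Chil3, higher in CEBPA-first against CSF3R-only, with a median log2 fold change of -2.92. In CSF3R-first 10 were lower and 1 higher (median -1.22). CEBPA-first against CSF3R-first gave 11 lower (91.7%, against 24.3% of all genes) and 0 higher (median -1.97). The lactoferrin gene Ltf measured 582 ± 166 CPM in CSF3R-only, 72.7 ± 36.5 for CSF3R-first and 11.6 ± 3.0 for CEBPA-first (-5.65, SE 0.34, adjusted p = 1.7e-08). Mmp9 (1247 ± 139 to 25.9 ± 2.8 CPM, -5.59, SE 0.23), Camp (18.7 ± 3.4 to 0.562 ± 0.23 CPM, -5.08, SE 0.32) and Ngp (947 ± 166 to 28.5 ± 8.4 CPM, -5.05, SE 0.32) were likewise lower. Chil3, outside the rule for naming and chosen after its values were seen, measured 1167 ± 248 CPM in CSF3R-only, 6957 ± 1678 for CSF3R-first and 5603 ± 1164 for CEBPA-first.

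Of 11 tested inflammatory targets of C/EBPbeta and C/EBPdelta, 10 were lower (90.9%, against 36.6% of all genes) and 1, Il6, higher in CEBPA-first against CSF3R-only (median -3.15). In CSF3R-first 6 were lower and 0 higher by edgeR (median -0.85). CEBPA-first against CSF3R-first gave 10 lower (90.9%, against 24.3% of all genes) and 1 higher (median -2.02). Nos2, the inducible nitric oxide synthase, measured 425 ± 26.8 CPM in CSF3R-only, 165 ± 65.2 for CSF3R-first and 9.62 ± 4.5 for CEBPA-first (-5.48, SE 0.37, adjusted p = 5.2e-08). The cytokine Il1b (195 ± 24.8 to 6.58 ± 1.0 CPM, -4.89, SE 0.24), the chemokine Cxcl2 (45.6 ± 4.4 to 4.61 ± 0.74 CPM, -3.30, SE 0.25) and the acute-phase gene Saa3 (6113 ± 909.6 to 638 ± 188 CPM, -3.26, SE 0.25) were lower. Il6, also chosen after its values were seen, measured 12.6 ± 3.8 CPM in CSF3R-only, 15.0 ± 5.9 for CSF3R-first and 30.8 ± 6.8 for CEBPA-first.

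Of 15 CHOP and ATF4 stress targets, 7 were higher (46.7%, against 35.4% of all genes) and 6 lower (against 36.6%) in CEBPA-first against CSF3R-only (median 0.14), and 6 higher (against 21.6%) and 5 lower (33.3%, against 21.1%) in CSF3R-first (median 0.11). Ero1l, an oxidase of the endoplasmic reticulum, rose from 529 ± 57.9 to 1339 ± 203 CPM (1.34, SE 0.12). The proapoptotic genes Bcl2l11, which encodes BIM (108 ± 11.7 to 34.2 ± 5.9 CPM, -1.66, SE 0.14), and Bbc3, which encodes PUMA (28.1 ± 1.2 to 11.5 ± 0.57 CPM, -1.29, SE 0.07), were lower, as was Atf3, which is also in the bZIP list. The median over all genes tested was -0.0045 in CEBPA-first and -0.02 in CSF3R-first against CSF3R-only. Of the same 15 targets, 5 were higher and 5 lower (33.3% each) in CEBPA-first against CSF3R-first (median -0.04).

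**Figure D5:**
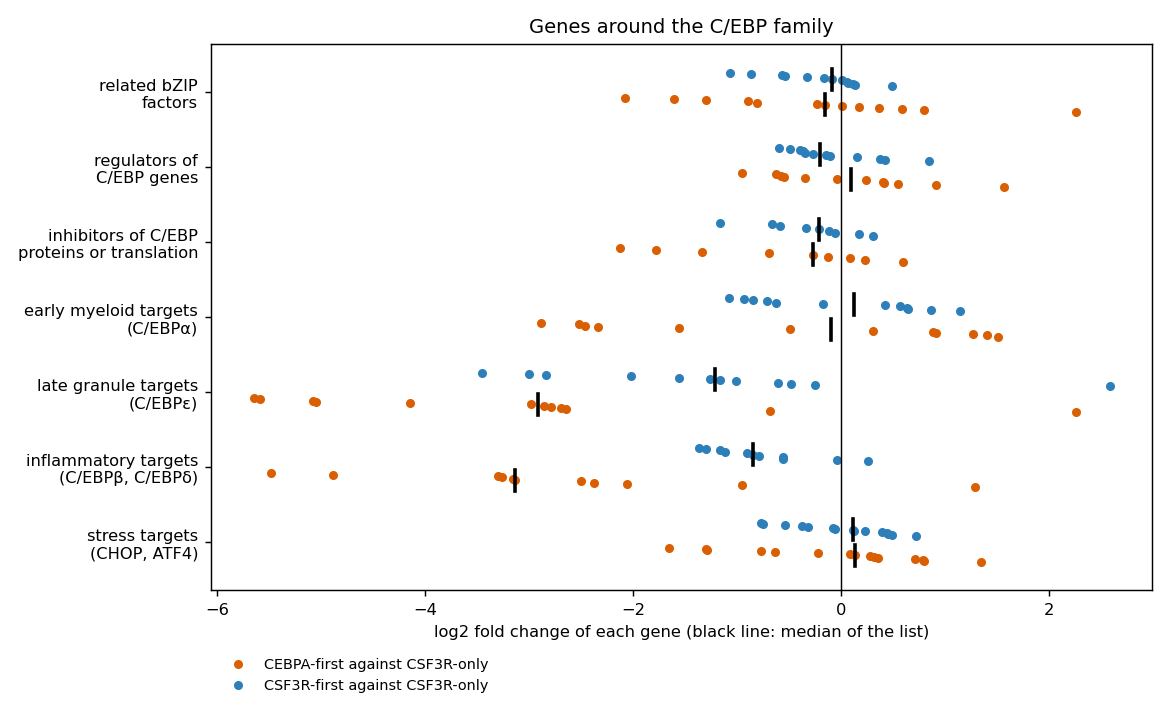
Log2 fold change of each tested gene of the 7 lists in CEBPA-first and in CSF3R-first against CSF3R-only, with the median of each list as a black line. The medians of the late granule (-2.92) and inflammatory targets (-3.15) lie far below 0 in CEBPA-first, whereas those of the other lists lie between -0.27 and 0.14.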

How the data were processed

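Libraries were made with the SMARTer low input kit and sequenced as 100 bp single reads. Per the study's methods and the submitters' processing notes the reads were trimmed with Trimmomatic, aligned with STAR to mm10 and compared with DESeq2. The deposited table holds raw counts of reads per mouse Ensembl gene for 11 samples. The counting tool, its annotation and its use of strand are not given in the sources used here. Symbols and exons came from GENCODE M21 (GRCm38), and promoter sequences from RefSeq (GRCm38.p6).

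Samples were grouped by title. Counts were scaled by TMM and tested in edgeR 4.0.16 (R 4.3.3; filterByExpr, glmQLFit and glmQLFTest, one fit of the 3 groups), with Benjamini-Hochberg adjustment over 15703 genes. The threshold was an adjusted p of 0.05, and the study's added log2 fold change of 1 is given beside it. The script was tested on simulated counts. Ratios used two-sided exact permutation tests adjusted over 21. The alternatives were DESeq2 1.42.0, other scalings and filters, only the groups compared, a replicate block, other pseudocounts and lengths, and each sample left out. The genes named are all 7 members, up to 4 genes per list with the largest called change in CEBPA-first against CSF3R-only, and the 3 genes most like Cebpa, Cebpb, Cebpd, Cebpe and Ddit3. Some genes that this rule names are not reported here. The members, lists and motifs were chosen with earlier results of these data known. Overlaps with other genes of at least 1% of a member's exon bases, and stretches of its longest transcript nearly identical to another gene (BLAST 2.17.0, at least 97% over 100 bases), are given beside the member. Depth limits little here, since the lowest member had at least 297 counts in a sample.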

Additional observations from a re-analysis of the deposited data

Results flagged for a closer look

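Among the 28 groups of 4 samples examined for a member's CPM or a ratio, 1 sample lay far from the others of its group by Dixon's test at 95%, which flags about 1 in 20 groups by chance. The log2 ratio of Cebpe to Cebpb per kb of exon was -2.795 in CEBPA-first A, below the other CEBPA-first samples. Without that sample the difference of CEBPA-first from CSF3R-only in this ratio went from 0.62 to 0.67. The groups of 3 samples were not examined in this way.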

How the results depend on the processing

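Most values held under the alternatives: 513 of the member fold changes and 193 of the ratios kept their direction and their side of the threshold, or moved by less than the spread between replicates where a left-out sample made a call impossible. With library size alone the log2 fold change of Cebpg in CSF3R-first against CSF3R-only turned to 0.0023. With DESeq2 the number of members off the midpoint went from 0 to 1, Cebpg (-0.16, adjusted p = 0.026). With each sample left out in turn, Cebpb in CSF3R-first against CSF3R-only ranged from -0.81 to -0.44 and Cebpz from 0.23 to 0.40, and both missed the threshold in some of these fits. The number of members called there ranged from 4 to 6. Against the midpoint, where no member was called, the sign changed in some of these fits, with ranges of -0.13 to 0.17 for Cebpd, -0.20 to 0.16 for Cebpe and -0.16 to 0.015 for Cebpz. The ratio of Cebpe to Cebpb in CSF3R-first against CSF3R-only ranged from -0.059 to 0.085, and that of Cebpd to Cebpb in CEBPA-first against CSF3R-only from 0.15 to 0.27. The cause was not tested. Of all genes, those past both thresholds went from 1045 to 566 in CSF3R-first against CSF3R-only and from 2016 to 1219 in CEBPA-first against CSF3R-first under a filter of 10 counts in each sample, with fewer genes tested. In the former comparison 2186 genes in place of 3318 were lower without CSF3R-first B. Off the midpoint, 151 lower genes became 306 with DESeq2 and 99 without CSF3R-first C, and 223 past both thresholds became 121 with the stricter filter.

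Samples with the same letter correlated by -0.107 to 0.362 in their deviations from the group means over 10 pairs. Of these, 9 were above 0 and 7 above 0.1, with a mean of 0.156 against -0.0527 over the 30 pairs of other letters, and 6 of 11 samples correlated best with their own letter. This is a hint of shared structure from the data. Since the labels do not say what a letter marks and not every pair was above 0.1, the letters were not taken to pair the samples. With a replicate block the fold changes of all members kept their calls, Cebpb in CSF3R-first against CSF3R-only had an adjusted p of 0.0009 in place of 0.016, and Cebpe against the midpoint turned to -0.0014.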
